A study of Homo sapiens with 5 samples.

Results

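The S100 proteins are small calcium-binding proteins, and 10 of their genes (S100A2, S100A3, S100A4, S100A6, S100A10, S100A11, S100A13, S100A14, S100A16 and S100P) were taken by name from the 17297 genes of a table of ribosome footprints. The cells were HCT116, a human colorectal carcinoma line grown in McCoy's 5A medium with fetal bovine serum, penicillin and streptomycin. The WT group held 2 libraries of unedited cells. The MUT group held 3 libraries of cells homozygous for eIF6-N106S, an asparagine-to-serine change made with CRISPR/Cas9 in the anti-association factor of the large ribosomal subunit. The labels speak of mutant clones but do not say whether the libraries of a group came from separate clones or cultures, so the spread behind each p-value is that of these libraries and could be technical alone, and the edit cannot be told apart from other differences between the edited and the unedited cells. By its title the series asks how targeting eIF6 affects ribosomal subunits, mitotic exit and cancer progression.

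S100 proteins carry a pair of EF-hands, the helix-loop-helix motif that holds a calcium ion, and mostly work as dimers. Calcium opens a surface on the dimer that grips a partner protein, among them annexins, non-muscle myosin and regulators of growth. In epithelia and in carcinomas they are known for roles in cell shape, movement, membrane repair and, when secreted, signalling to other cells. Most of the family sits in one stretch of chromosome 1, while S100P lies on chromosome 4.

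The S100 genes that were called in MUT cells went in both directions. S100A14, an epithelial S100 protein whose EF-hands lack part of the usual calcium-holding residues, fell 1.76-fold. S100A4, a myosin-binding protein known for its part in cell movement and metastasis, fell 1.27-fold. S100A16, which is reported to bind S100A14, rose 1.26-fold, and S100A11, a partner of annexin A1, rose 1.24-fold. S100A2, S100A3, S100A6, S100A10 and S100A13 did not pass the threshold, and S100P was barely counted. Fold changes are MUT over WT from edgeR's quasi-likelihood test on the whole table, with Benjamini-Hochberg adjusted p under 0.05 over 11991 tested genes as the threshold. Only the call of S100A14 held in all 14 alternative fits, which are listed with the processing. Of the 10 genes 9 passed the filter on low counts, and 2 rose and 2 fell, against a background of 22.9% of all tested genes called (10% higher, 12.9% lower). That balance depends on the scaling: 1203 genes were higher and 1544 lower with TMM, against 1558 and 1209 with upper-quartile scaling and 1756 and 1040 with library size only.

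The stretches of DNA just before the start of the 4 genes that changed, and of S100A6, the gene of the set with the most counts, are shown because 2 of these genes, S100A14 and S100A16, are neighbours that changed in opposite directions. They are the last 100 bases before the outermost annotated start, from RefSeq on GRCh38.p14, all on the minus strand: chr1:153616326-153616425 for S100A14, chr1:153545807-153545906 for S100A4, chr1:153613138-153613237 for S100A16, chr1:152037005-152037104 for S100A11 and chr1:153535992-153536091 for S100A6. Capitals mark TATAA on the gene's strand with its first base 20 to 40 bases before the start, and GGGCGG, the GC box, on either strand.
S100A14: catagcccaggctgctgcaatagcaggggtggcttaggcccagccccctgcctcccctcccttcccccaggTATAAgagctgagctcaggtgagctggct
S100A4: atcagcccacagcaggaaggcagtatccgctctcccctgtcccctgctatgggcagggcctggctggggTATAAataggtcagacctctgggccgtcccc
S100A16: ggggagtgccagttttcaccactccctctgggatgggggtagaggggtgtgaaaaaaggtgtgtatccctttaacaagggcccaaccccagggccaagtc
S100A11: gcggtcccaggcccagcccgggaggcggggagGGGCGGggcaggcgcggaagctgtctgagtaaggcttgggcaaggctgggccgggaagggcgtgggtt
S100A6: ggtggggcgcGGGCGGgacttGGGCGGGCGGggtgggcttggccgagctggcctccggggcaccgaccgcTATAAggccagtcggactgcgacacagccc

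All 10 genes had an entry in the promoter table. TATAA in that position was found for S100A14 (29 bases before the start), S100A4 (31 bases), S100A6 (30 bases) and S100P (28 bases), that is 4 of 10 genes, where 3.91% of all 35116 promoter windows of the table hold it. Both genes that fell hold it and neither gene that rose does, but S100A6, which did not pass the threshold, holds it too. A link between this motif and the direction of change was not tested. GGGCGG was found within 250 bases before the start in 5 of 10 genes (S100A3, S100A6, S100A10, S100A11 and S100A13), against 42.6% of all windows. TGANTCA, the letters of an AP-1 site, stood in 2 of 10 (S100A2 and S100A3), against 6.57%, and the E-box CACGTG in 0 of 10, against 6.34%. CCAAT was found in S100A3 alone, against 32% of windows. TGANTCA and CACGTG read the same on both strands, and GGGCGG and CCAAT were searched on both. In S100A6 the last 2 of 3 GGGCGG matches overlap. S100A2, S100A13 and S100A16 have further annotated starts, which were not searched. These are matches of letters and say nothing of which factor binds.

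S100A14 showed the clearest change of the set. Its footprints came to 92.6 and 84.1 CPM (counts scaled to a library size of 1e6, with TMM factors) in WT replicates 1 and 2, and to 49.1, 48.3 and 52.4 CPM in MUT replicates 1, 2 and 3. Every MUT library lay below both WT libraries. The means were 88.4 ± 5.99 CPM (SD, n = 2) and 49.96 ± 2.19 CPM (SD, n = 3), from 186 and 258 counts in the WT libraries against 155, 184 and 205 in the MUT libraries. The log2 fold change was -0.81 (SE 0.12, 95% interval -1.06 to -0.57), with an adjusted p of 4.59e-05 in edgeR. S100A14 passed the threshold in all 14 alternative fits, between -0.88 and -0.74, and 5.09% of tested genes had a larger change in size.

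S100A16 lies beside it. Only 1117 bases separate the 2 genes by their annotated bounds (S100A16 at 153606883 to 153613137 and S100A14 at 153614255 to 153616325 on chromosome 1), and both are read from the minus strand. S100A16 had 171 and 175 CPM in WT and 211, 217 and 225 CPM in MUT. Here every MUT library lay above both WT libraries. This gave a log2 fold change of 0.33 (SE 0.0938, 95% interval 0.14 to 0.52; adjusted p 0.0134 in edgeR). The call ended without WT replicate 1 (adjusted p 0.0665) and without WT replicate 2 (0.062), with log2 fold changes of 0.31 and 0.35. Counts of S100A14 divided by those of S100A16 in the same library, a ratio that no scaling of libraries can alter, were 0.541 and 0.48 in WT and 0.233, 0.222 and 0.233 in MUT. Between the groups this ratio dropped from 0.511 ± 0.0426 (SD, n = 2) to 0.23 ± 0.00626 (SD, n = 3). The pair was singled out after its values were seen, so no test is given.

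S100A4 had 282 and 268 CPM in WT and 213, 239 and 196 CPM in MUT, so all MUT libraries lay below both WT libraries. Its log2 fold change was -0.34 (SE 0.0978, 95% interval -0.55 to -0.14; adjusted p 0.0132 in edgeR). The call ended without WT replicate 1 (adjusted p 0.077), WT replicate 2 (0.0589), MUT replicate 1 (0.0697) or MUT replicate 3 (0.0615), while the log2 fold change stayed between -0.42 and -0.27 over the 14 alternatives. S100A4 occupies 153543621 to 153545806 on chromosome 1 and shares 65 bases with the bounds of S100A5.

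S100A11 had 186 and 167 CPM in WT and 211, 237 and 204 CPM in MUT. The MUT libraries again lay above the WT libraries, and the log2 fold change was 0.31 (SE 0.0998, 95% interval 0.10 to 0.51; adjusted p 0.0275 in edgeR). This was the least settled of the 4 calls. It ended without WT replicate 2 (0.241), MUT replicate 1 (0.0722) or MUT replicate 2 (0.118), with DESeq2 (0.0679), and with a trend on gene span removed (0.06). RefSeq lists 10 pseudogenes of S100A11 and none by name for the other members, and the sources used here do not give how reads that fit several places were counted, so its level is uncertain. S100A11 occupies 152032506 to 152037004 on chromosome 1.

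**Figure D1:**
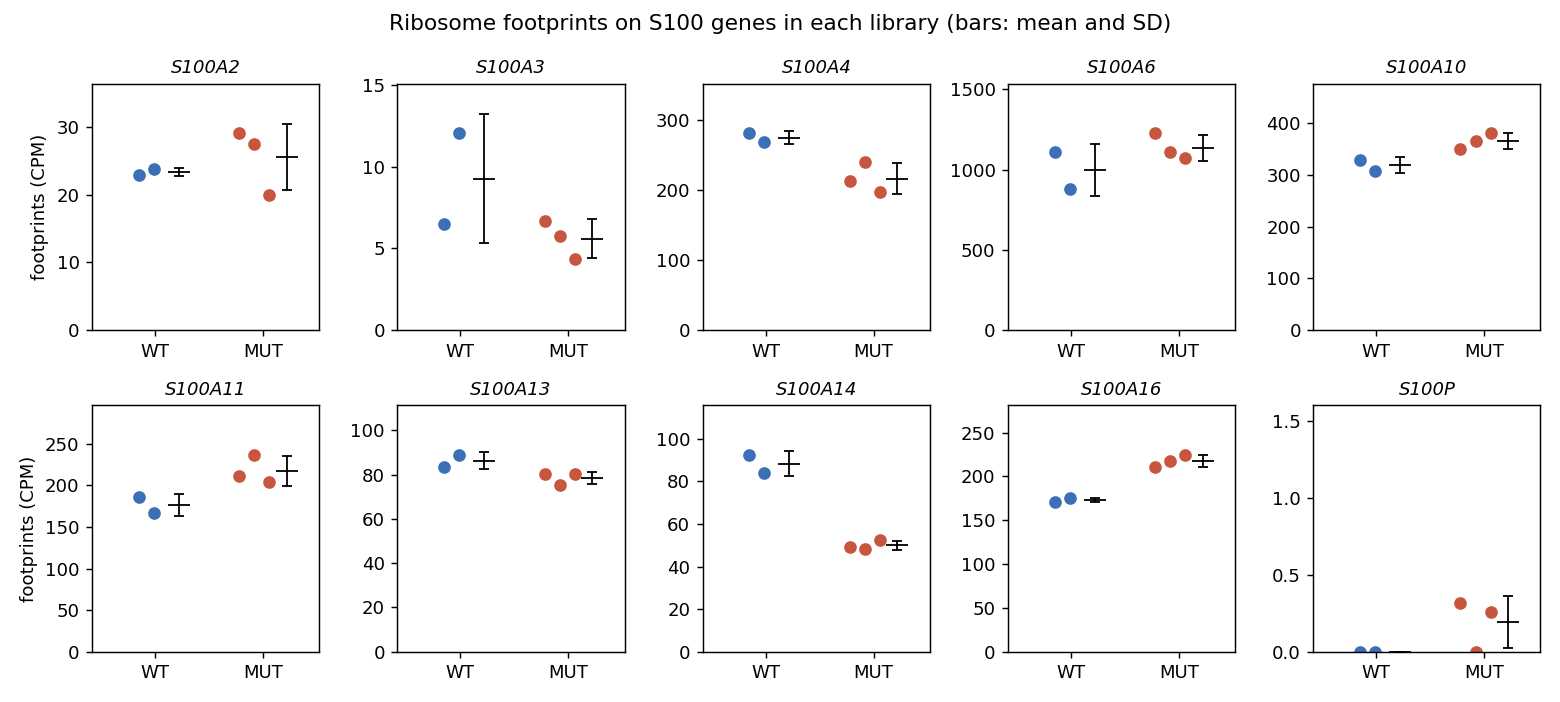
Footprints on each of the 10 S100 genes in CPM (linear axes from 0, a different range in each panel), with 1 point per library (2 WT in blue, 3 MUT in red) and the mean and SD as black bars. The MUT points of S100A14 (48.3 to 52.4 CPM) sit well below its WT points (84.1 and 92.6 CPM), and those of S100A16 above theirs, while the groups overlap in S100A2, S100A3, S100A6 and S100P.

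S100A6 (calcyclin), which binds annexins and the protein CACYBP and is made in dividing cells, held the most counts of the set. It had 1111 and 881 CPM in WT and 1229, 1109 and 1073 CPM in MUT. WT replicate 1 lay among the MUT libraries and WT replicate 2 below all of them. The log2 fold change of 0.19 (SE 0.109, 95% interval -0.03 to 0.42) missed the threshold, with an adjusted p of 0.208 in edgeR. With WT replicate 1 left out it was 0.36 (adjusted p 0.0265, past the threshold), and with WT replicate 2 left out 0.04 (0.843), so the value depends on which WT library is kept. A lncRNA gene covers the whole of S100A6 in the annotation, and the sources used here do not say whether reads were counted by strand.

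S100A10 (p11) has lost the calcium-holding residues, stays bound to annexin A2 and helps bring plasminogen to the cell surface. Its footprints were 330.0 and 308 CPM in WT and 351, 366 and 382 CPM in MUT, with all MUT libraries above both WT libraries. The log2 fold change was 0.20 (SE 0.0937, 95% interval 0.01 to 0.40; adjusted p 0.12 in edgeR), which did not pass. It passed only with scaling by library size alone (0.28, adjusted p 0.0279), 1 of 14 alternatives. That scaling moved the median of all tested genes from 0.00 to 0.07.

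S100A13, which takes part in the export of FGF1 from cells, had 83.6 and 89.0 CPM in WT and 80.2, 75.1 and 80.1 CPM in MUT. The MUT libraries lay just below the WT libraries, and the log2 fold change of -0.14 (95% interval -0.37 to 0.09; adjusted p 0.38 in edgeR) did not pass in any of the 14 alternatives. By its annotated bounds S100A13 contains all 3606 bases of S100A1 and shares 296 with CHTOP, so its counts may include reads of these genes. In the WT libraries S100A1 was counted 0 and 7 times, and in the MUT libraries 0, 2 and 6 times.

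S100A2, found in the nucleus of epithelial cells and able to bind p53, had 22.9 and 23.8 CPM in WT and 29.2, 27.6 and 19.95 CPM in MUT. The MUT libraries lay on both sides of the WT libraries, and the log2 fold change was 0.12 (95% interval -0.29 to 0.53; adjusted p 0.711 in edgeR). In linear terms that interval runs from 0.816 to 1.44 times the WT level, so changes as large as those of the 2 genes that rose lie inside it.

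S100A3, a cysteine-rich protein of the hair cuticle, was thinly counted, with 13 and 37 counts in the WT libraries against 21, 22 and 17 in the MUT libraries. In CPM these were 6.47 and 12.1 in WT and 6.66, 5.78 and 4.35 in MUT. WT replicate 2 was high, and WT replicate 1 lay inside the MUT range. The log2 fold change of -0.79 (SE 0.364, 95% interval -1.54 to -0.04; adjusted p 0.117 in edgeR) did not pass. With WT replicate 1 left out it was -1.12, and with WT replicate 2 left out -0.21. A lncRNA gene covers S100A3 as well.

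S100P, which is raised in many carcinomas and activates ezrin, had 0 counts in both WT libraries and 1, 0 and 1 counts in the MUT libraries. It did not pass the filter and was not tested. The 0 counts over both WT libraries allow up to 0.574 counts per 1e6 of their total (3 counts), or 0.706 by the exact Poisson 95% interval. The 2 MUT counts correspond to 0.188 on the same scale (exact Poisson 95% interval 0.0227 to 0.678). No difference was detectable at this depth. Intervals and limits of this kind cover counting error only.

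**Figure D2:**
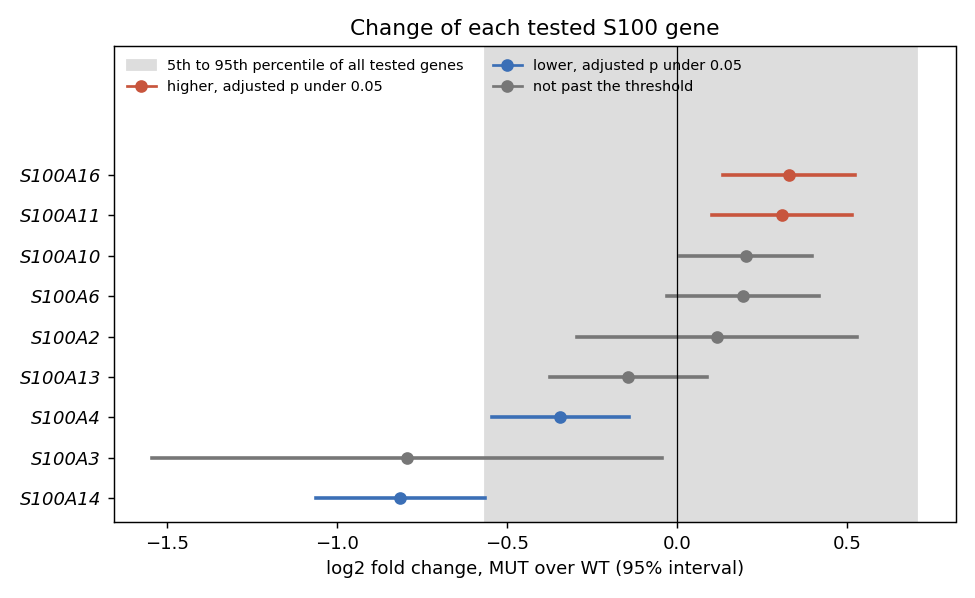
Log2 fold change (MUT over WT) of the 9 tested S100 genes with 95% intervals, coloured by the edgeR call, on the grey band that holds the 5th to 95th percentile of all tested genes (-0.57 to 0.71). The point of S100A14 at -0.81 lies outside the band, as does that of the thinly counted S100A3 at -0.79, and the other 7 lie inside it.

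Seen as a set, the 9 tested genes had a median log2 fold change of 0.12 (range -0.81 to 0.33), beside 0.00 for all tested genes. The groups did not overlap for 6 of the 9 (3 with MUT above and 3 with MUT below), and 50.7% of all tested genes showed the same. The 10 genes together took 0.219% and 0.197% of all counts in WT and 0.244%, 0.236% and 0.229% in MUT. S100A6 alone made up 43.9% to 51.6% of that in single libraries. The other members' share averaged 0.112% ± 0.00147 over the WT libraries (SD, n = 2), against 0.12% ± 0.00278 over the MUT libraries (SD, n = 3).

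Other S100 genes were barely counted. Of 11 more genes of the family, 7 were counted and 1 passed the filter: S100A5, with 32 and 40 counts in the WT libraries, then 40, 65 and 42 in the MUT libraries, and a log2 fold change of -0.08 (SE 0.263; adjusted p 0.86 in edgeR). S100A8 and S100A9, the calprotectin pair of myeloid cells, had at most 3 counts in any library. S100PBP, a nuclear protein that binds S100P, fell from 86.7 ± 6.47 CPM (SD, n = 2) to 69.2 ± 6.47 CPM (SD, n = 3), a log2 fold change of -0.33 with an adjusted p of 0.0473 in edgeR. That call held in 5 of 14 alternatives, for example not with DESeq2 or without WT replicate 1 or 2.

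Neighbouring genes did not share one direction. The members from S100A6 to S100A13, take up a stretch of 99.8 kb on chromosome 1, and S100A10 and S100A11 lie 38646 bases apart at some distance from it. Within 0.5 Mb around the members (151482915 to 154134361) 60 other genes were in the table and 20 were tested. Of these, 2 rose and 1 fell (15% called, beside 22.9% of all tested genes), and their median log2 fold change was -0.01. INTS3, a subunit of the Integrator complex, rose 1.55-fold, the mitochondrial ribosomal protein gene MRPL9 rose 1.23-fold, and CREB3L4, a transcription factor of the CREB family, fell 1.99-fold. Without WT replicate 1 the call of INTS3 ended (adjusted p 0.226), and calls ended for MRPL9 in 7 of 14 alternatives and CREB3L4 in 5 of 13 alternatives that tested it. CHTOP, which overlaps S100A13, had a log2 fold change of -0.02 (SE 0.099), and SNAPIN and ILF2, next along, had -0.25 and -0.02, none past the threshold.

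**Figure D3:**
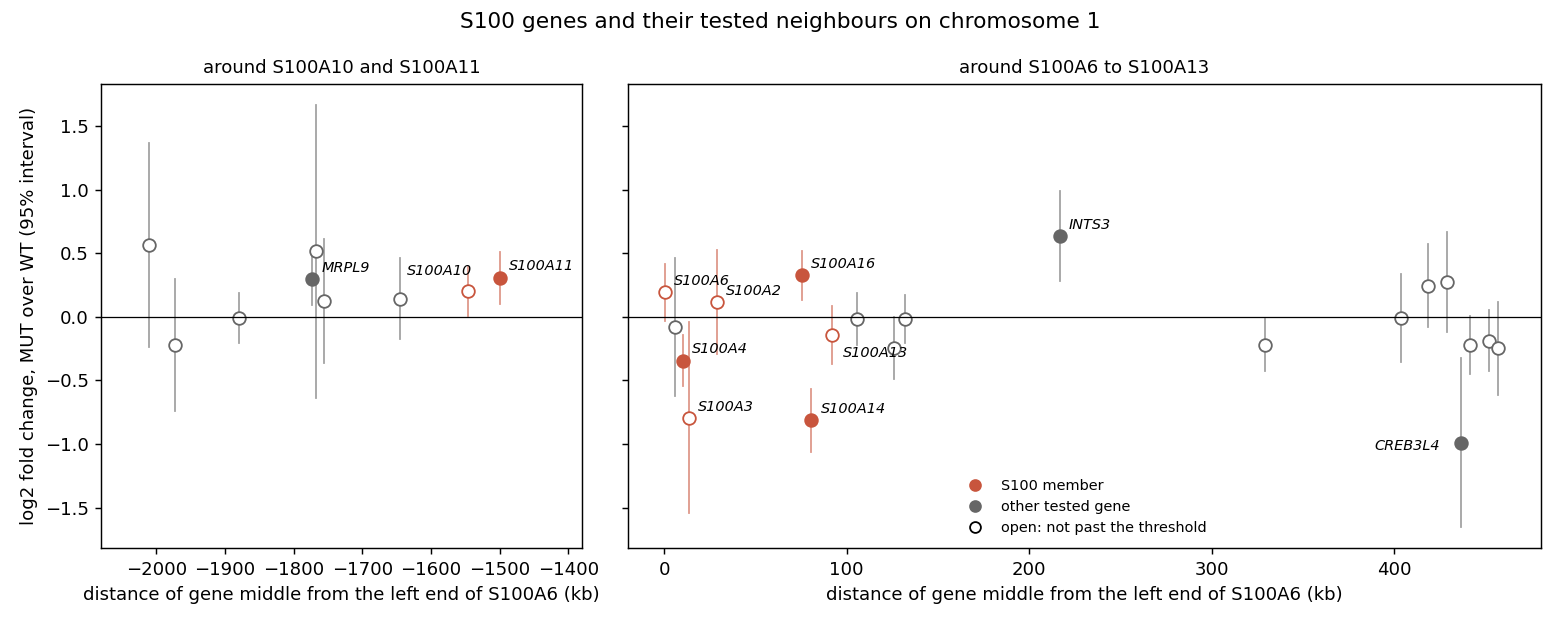
Log2 fold change (MUT over WT, with 95% intervals) of the S100 genes (red) and the other tested genes (grey) by distance along chromosome 1 in kb from the left end of S100A6, with filled points past the threshold. S100A16 at 0.33 and S100A14 at -0.81 stand next to each other on opposite sides of 0, and most neighbours are open points near 0.

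The annexins, calcium-dependent membrane-binding proteins that pair with several S100 proteins, changed in both directions where they passed the threshold. Of 12 annexins counted, 9 were tested, 1 rose and 2 fell (33.3% called, beside 22.9% of all tested genes), with a median log2 fold change of -0.03. Annexin A2, the partner of S100A10, averaged 476 ± 14.2 CPM over the WT libraries (SD, n = 2), against 483 ± 45.7 CPM over the MUT libraries (SD, n = 3), with a log2 fold change of 0.02 (SE 0.0994, 95% interval -0.18 to 0.23; ANXA2, adjusted p 0.90 in edgeR). Annexin A1, the partner of S100A11, had 390.5 ± 36.2 and 443 ± 52.1 CPM, with a log2 fold change of 0.18 (SE 0.105; ANXA1, adjusted p 0.229). Counts of S100A10 per count of ANXA2 were 0.679 and 0.66 in WT and 0.725, 0.692 and 0.873 in MUT, so MUT lay above WT in every library. Counts of S100A11 per count of ANXA1 were 0.509 and 0.401 in WT and 0.473, 0.481 and 0.523 in MUT, and the groups overlapped.

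ANXA3 fell from 312 ± 12.8 to 227 ± 5.99 CPM (log2 fold change -0.46, SE 0.0906), with an adjusted p of 0.000906 in edgeR, and kept its call in 14 of 14 alternatives. ANXA10, an annexin of gastric epithelium, fell from 9.83 ± 5.46 to 2.21 ± 1.37 CPM, from 12 and 42 counts in the WT libraries against 11, 9 and 3 in the MUT libraries, and its call ended without WT replicate 2 (adjusted p 0.255) and with DESeq2. ANXA6 rose 1.41-fold and kept its call in 8 of 14 alternatives. It was lost, for example, without WT replicate 1 or WT replicate 2.

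Binding partners outside the annexins moved both ways. Of 25 listed genes 18 were tested, 4 rose and 6 fell (55.6% called, beside 22.9% of all tested genes), with a median of -0.04. Ezrin (EZR), the membrane-actin linker that S100P binds, rose 1.35-fold, from 802 ± 106 to 1083 ± 48.8 CPM, and its call ended without WT replicate 2 (adjusted p 0.0511). MYH9, the non-muscle myosin heavy chain that S100A4 binds, went from 183 and 291 CPM in WT to 301, 383 and 268 CPM in MUT. Its groups overlapped, and its rise of 1.32-fold (adjusted p 0.0434 in edgeR) ended without WT replicate 1 (log2 fold change 0.12, adjusted p 0.638), with DESeq2, and without MUT replicate 1 or 2. MDM2, the ubiquitin ligase of p53 to which several S100 proteins bind, rose 1.34-fold and passed in 14 of 14 alternatives, and the receptor kinase ERBB2 rose 1.73-fold and lost its call without WT replicate 1 or 2 and with DESeq2.

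Among the partners that fell, CACYBP, named calcyclin-binding protein after S100A6, went from 204 ± 29.7 to 143 ± 15.2 CPM (log2 fold change -0.52, SE 0.106). SYT1, a synaptic vesicle protein that joins S100A13 in the export of FGF1, fell 1.91-fold, from 56.2 ± 4.88 to 29.6 ± 3.45 CPM. PPFIBP1, the liprin that S100A4 binds, fell 1.51-fold, and FKBP5, a co-chaperone, fell 1.38-fold. SYT1, PPFIBP1 and FKBP5 kept their calls in 14 of 14 alternatives, while that of CACYBP ended without WT replicate 2 (adjusted p 0.105). AHNAK, the giant scaffold held by S100A10 and annexin A2, was named after its value was seen. It had 795 and 1579 CPM in WT and 790.3, 879 and 730 CPM in MUT, and its call (adjusted p 0.0112 in edgeR) ended without WT replicate 2, where the adjusted p was 0.95 and the log2 fold change turned to 0.02. It also ended with DESeq2 and without MUT replicate 1 or 3.

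Other EF-hand proteins likewise went in both directions. Of 61 listed genes 49 were tested, 10 rose and 9 fell (38.8% called, beside 22.9% of all tested genes), with a median of 0.03. The membrane-shaping ATPases EHD2 and EHD1 rose 1.49-fold and 1.6-fold, the mitochondrial inner membrane protein LETM1 1.51-fold and the actinin ACTN1 1.3-fold. The neuronal calcium sensor VSNL1 fell 3.15-fold, the centriole protein CETN3 1.91-fold, the endoplasmic reticulum protein RCN2 1.70-fold and the myosin light chain MYL12A 1.39-fold. LETM1 and ACTN1 lost their calls without WT replicate 1, and the other 6 named here that changed kept theirs in all 14 alternatives.

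Library totals ran from 2095217 to 3821176 counts, the smallest in WT replicate 1. All 8 epithelial markers were counted, and their sum was 1111 and 1201 CPM in WT and 1154 to 1463 CPM in MUT. Of these markers KRT8 and KRT19 rose while EPCAM, CDH1 and CLDN7 fell beside the epithelial S100A14, and their part in that fall was not tested. The leukocyte markers in the table summed to at most 4.98 CPM in WT and 9.21 CPM in MUT, and the endothelial ones to at most 5.48 and 1.9 CPM. Fibroblast markers reached 8.96 and 9.19 CPM, and those of neurons and glia 17.4 and 21.2 CPM. Higher sums came from keratinocyte markers (at most 134 and 125 CPM) and muscle markers (48.3 and 38.6 CPM). Most of these came from KRT10 (means 121 and 112 CPM) and ACTA1 (38.7 and 33.2 CPM). The edited gene EIF6 was counted 369 and 524 times in the WT libraries, and 467, 643 and 602 times in the MUT libraries (adjusted p 0.215 in edgeR), and a change of a single amino acid need not alter that count.

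**Figure D4:**
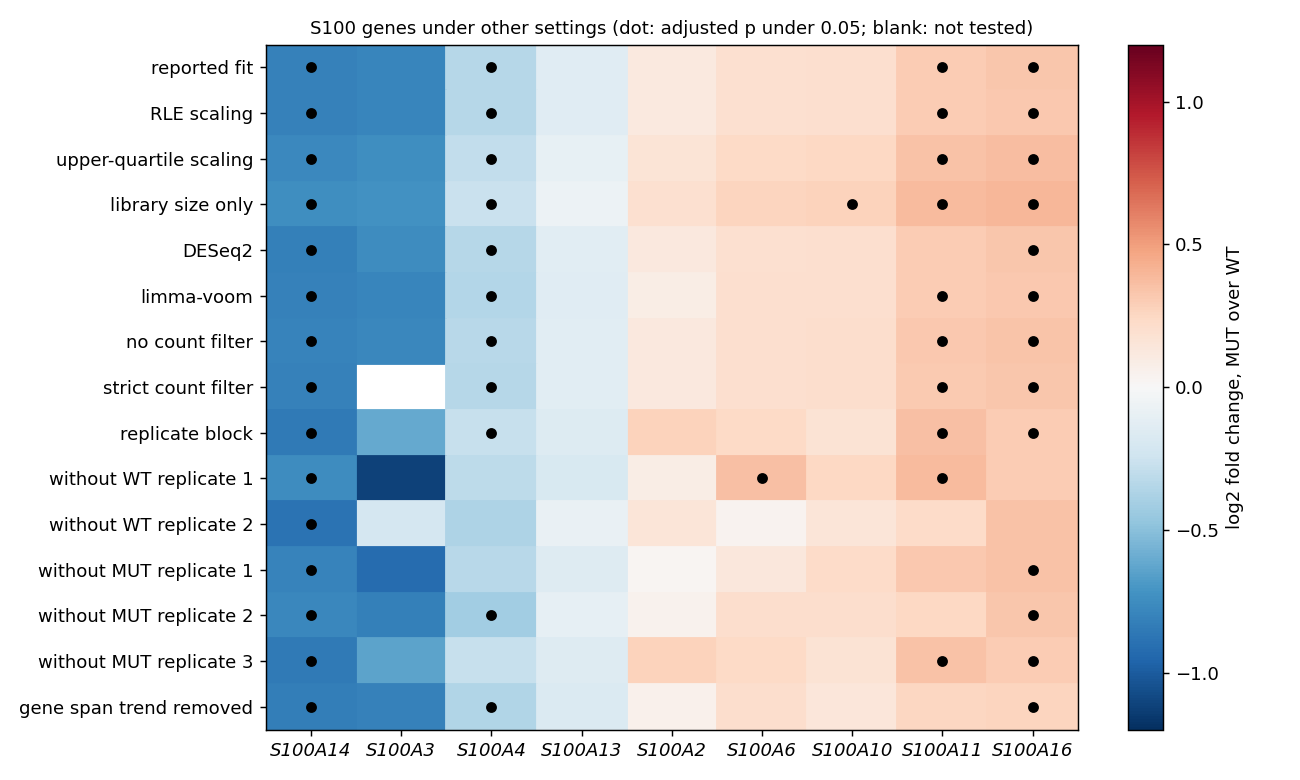
Log2 fold change (colour, blue for lower and red for higher in MUT) of the 9 tested S100 genes in the reported fit and 14 alternatives, with a dot where the adjusted p is under 0.05 and a blank where the gene was not tested. The column of S100A14 has a dot in every row, while those of S100A4, S100A11 and S100A16 lose theirs mainly in rows that leave out a library, and no column changes colour from blue to red.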

How the data were processed

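Ribosome footprints were profiled in 5 HCT116 libraries, 2 WT and 3 MUT. Per the labels' protocols, cells at 60 to 70% density were lysed and treated with MNase, monosomes were taken from a sucrose gradient, and fragments of 25 to 35 nucleotides were cleared of rRNA before small-RNA libraries were built. MNase prefers to cut beside A and T, which can shape what is recovered from a short coding sequence. The deposited values are raw counts per gene, not normalized by the authors, and per the submitters' processing notes the build was hg38 and the tools were FastQC 0.12.1, cutadapt 4.6, DESeq2 1.42.0 and STAR 2.5.2b. Not given in the sources used here are the counter, the annotation and whether strand was used. The RNA-seq part of the study was not analysed here, so mRNA amount and ribosomes per mRNA cannot be told apart. Coding lengths were not used here, so levels are not set against each other between genes.

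Columns were matched by the library codes in the header. Of 17297 names 17253, among them all 10 members, matched the RefSeq table for GRCh38.p14. Counts were filtered with filterByExpr (minimum count 10, total 15), scaled by TMM (factors 0.959 to 1.03) and tested with edgeR 4.0.16 in R 4.3.3 (glmQLFit and glmQLFTest, MUT against WT, 3 residual degrees of freedom, common biological coefficient of variation 7.37%), with Benjamini-Hochberg adjustment over 11991 genes. Standard errors come from the F statistic. Each of 10 pairs of libraries differed beyond counting error (chi-square per gene 1.91 to 8.06). The test was checked on simulated counts. It recovered 12% of 1.25-fold changes, 52.1% of 1.5-fold, 92% of 2-fold and 96% of 3-fold changes. Of 137 genes called there 12 were false. Changes near 1.25-fold, the size of those of S100A4, S100A11 and S100A16, were thus mostly missed in the simulation. Its changed genes were drawn from all tested genes. Far fewer genes were called there than the 2747 in the data, which makes the adjusted threshold stricter. These shares therefore do not give the recovery for the S100 genes. A gene not called may still have changed. Alternatives were RLE, upper-quartile and library-size scaling, DESeq2 1.42.0, limma-voom (limma 3.58.1), no filter, a strict filter (30 counts in 2 libraries), the replicate number as a block, each library left out and, added after the data were seen, a gene-span trend removed.

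The members and lists were chosen with earlier results of these data known. The text names all members, EIF6, and from each list up to 4 called genes with the lowest p in each direction. Named outside this rule are AHNAK, the annexin partners ANXA1 and ANXA2, and the neighbours CHTOP, SNAPIN and ILF2. Other S100 genes, S100PBP and cell type markers are named outside it as well.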

Additional observations from a re-analysis of the deposited data

How the results depend on the processing

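Over 14 alternative fits the 9 tested members gave 125 log2 fold changes besides those reported. None of them changed sign, 112 kept their side of the threshold, 11 lost the call and 2 gained it. With DESeq2, 1 member was higher, the tested genes called were 519 higher and 846 lower, the annexins 0 higher and 1 lower, the chromosome 1 neighbours 1 higher and 0 lower, and 2 binding partners were higher. With limma-voom 0 annexins were higher. With the strict count filter 1 annexin and 0 chromosome 1 neighbours were lower. With the gene span trend removed 1 member and 1 chromosome 1 neighbour were higher. With the replicate block 2 annexins were higher, the tested genes called were 1529 higher and 1909 lower, and the 4 members called stayed called. Replicate 3 exists in MUT alone, so the block takes up that library and the estimates rest on the others. The log2 fold changes of S100A4 (-0.275) and S100A16 (0.305) equalled those without MUT replicate 3, where S100A4 lost its call. Deviations of same-numbered libraries from the group means correlated across genes at 0.079 and 0.148. With 2 WT libraries, whose deviations mirror each other, these values cannot decide whether same-numbered libraries shared more than a number.

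Leaving out 1 library at a time gave 0 to 2 members higher and 1 to 2 lower (1 lower and 0 higher without WT replicate 2). All tested genes gave 509 to 1089 higher and 732 to 1339 lower. Annexins gave 0 to 1 higher and 1 to 2 lower, binding partners 2 to 4 higher and 3 to 6 lower, other EF-hand genes 5 to 9 higher and 6 to 8 lower, and chromosome 1 neighbours 0 to 1 higher and 0 to 1 lower. Where a call was lost the cause was not tested, beyond the smaller number of libraries. The planned removal of a trend on coding length was not run, because no table of coding lengths was used here. Depth limits S100A3 and S100P most.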
